A study of Mus musculus with 2 samples.

Results

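The 45 genes described here encode DNA repair proteins of the Fanconi anemia pathway, homologous recombination, checkpoint signaling, mismatch repair, base excision repair and end joining. They were chosen by name, with earlier results of these data known, and all 45 were found among the 19294 genes of the deposited count table. The table comes from mRNA-seq of mouse intestinal organoids (mIOs), which are epithelial structures grown from crypts in Matrigel. The crypts came from the jejunum of Lgr5-EGFP-IRES-creERT2 mice, whose Lgr5 locus carries EGFP and a tamoxifen-inducible Cre, so both groups share this genotype. Both were kept in medium with EGF, Noggin and R-spondin and were sampled at day 4. The control group is 1 untreated library. The DSS group is 1 library from mIOs treated with dextran sulfate sodium, a sulfated polysaccharide that injures the epithelium. The DSS concentration used for sequencing and the number of mice or wells behind a library are not given in the sources used here. Counts summed to 65493032 for control mIOs and 59746968 for DSS mIOs, and no gene in the table had 0 counts in a library.

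Cells meet DNA damage with several routes that share parts. The Fanconi anemia pathway opens crosslinks between the strands at stalled replication forks: a core complex of FANC proteins attaches ubiquitin to FANCD2 and FANCI, which then bring in nucleases. Homologous recombination copies the sister chromatid with the help of BRCA1 and BRCA2, and is therefore at home in cells that have replicated their DNA. End joining seals breaks without a template, mismatch and base excision repair correct single bases, and the kinases ATM and ATR report damage to the cell cycle. In the intestine, the dividing cells sit in the crypt and the mature enterocytes and goblet cells no longer divide.

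In the DSS library, 44 of the 45 repair genes were lower than in the control library. Values are given as the log2 ratio, DSS over control, of counts scaled with TMM factors, so that -1 means 50% of the control level and -2 means 25%. The median of the members was -2.04, against -0.06 for the 17235 genes that reached 10 counts in 1 or both libraries. Of these 17235 genes, 8963 were below 0. At or below -1 were 35 of 45 members, where 20.2% of all genes lay, and at or below -2 were 23 members, where 6.54% of all genes lay. No member was at 1 or more, a line that 19.3% of all genes passed. With 1 library per group there is no replicate and no test. The 95% intervals given below are exact Clopper-Pearson intervals that cover counting error only. They lay wholly below 0 for 43 members, and for 7354 of the 17235 genes. For 2 members, Xrcc4 and Atrip, the interval held 0. In bulk RNA, fewer cells that express a gene and less of its RNA per cell cannot be told apart.

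**Figure D1:**
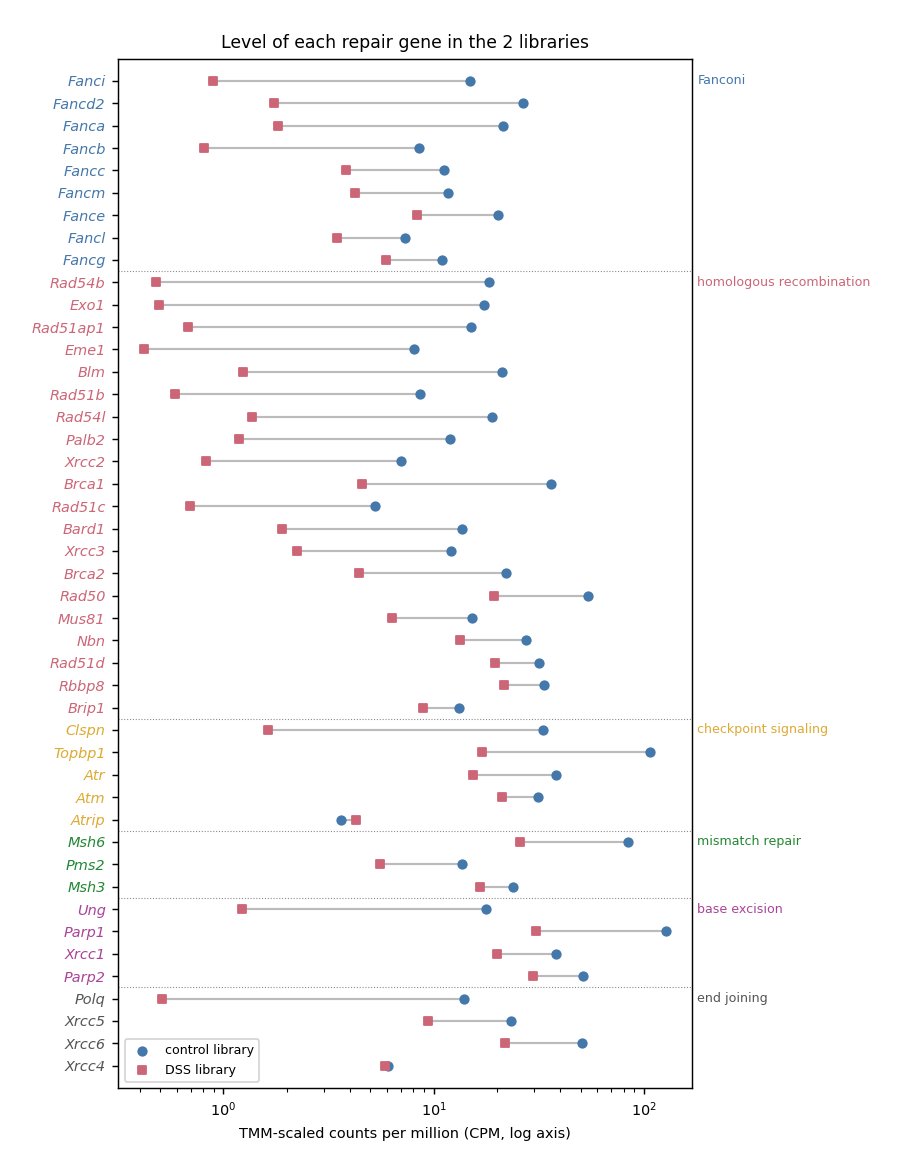
Level of each of the 45 members in the control library (circles) and the DSS library (squares), in TMM-scaled CPM on a log axis, grouped by pathway. The square lies left of the circle for 44 members, and Atrip is the exception, at 3.62 CPM in control mIOs and 4.26 CPM in DSS mIOs.

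Taken as a sum, the members held 84886 counts in the control library and 20098 in the DSS library, or 1186 and 368 CPM, the usual counts scaled to library size, here with TMM factors. The log2 ratio of the sums was -1.69, with an interval from -1.71 to -1.67. Counts of single members ran from 259 to 9058 in the control library and from 23 to 1682 in the DSS library. In the latter, 17 members had fewer than 100 counts, so the lowest ratios have wide intervals.

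The members differed widely among themselves, from -5.27 for Rad54b to 0.24 for Atrip. Medians were -2.95 for the 20 homologous recombination genes, -1.55 for the 9 Fanconi genes, -1.48 for the 4 base excision genes, -1.31 for the 5 checkpoint genes, -1.29 for the 3 mismatch repair genes and -1.26 for the 4 end joining genes. Several values depend on the summary, since the mean of the 9 Fanconi genes was -2.35. Means were -1.90 for base excision, -1.73 for checkpoint and -1.83 for end joining genes. A median over 3 to 5 genes rests on few values. All of the pathways but mismatch repair held at least 1 gene below -2 and 1 gene above -1.

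**Figure D2:**
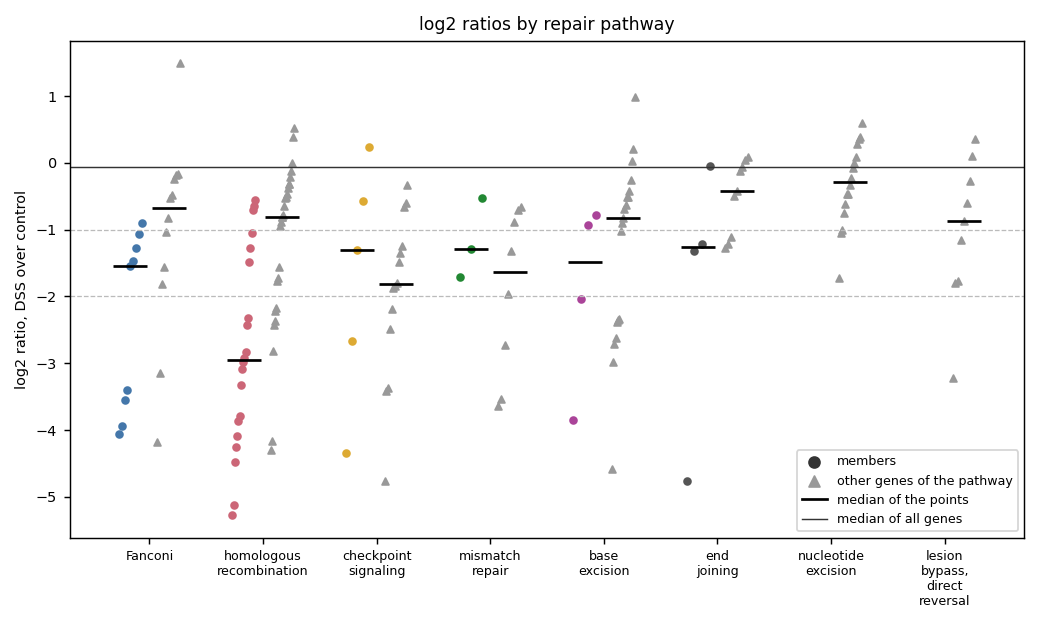
log2 ratio, DSS over control, of the members (circles) and of other genes of the same pathways (triangles), with thick bars at the medians, a line at the median of all genes (-0.06) and dashed lines at -1 and -2. The homologous recombination members reach lowest, with a median of -2.95, and 9 of their 20 genes lie at or below -3.

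The promoters of the members were searched for letters that cell cycle factors bind, because these genes lay low together. RefSeq promoters of GRCm38.p6, from 250 bases before to 50 bases after the start, were matched by symbol for 37 of the 45 members. The E2F motifs searched on both strands were TTTGGCGC, TTTCCCGC, TTTGGCGG, TTTCCCGG and TTTGCCGC, none of which contains another. At least 1 of these 5 was found in 8 of the 37 member promoters (21.6%) and in 4.25% of the promoters of 27025 gene symbols. These 27025 are all symbols with a promoter given, not only the genes counted here. It was found in 4 of 19 members at or below -2 (21.1%) and in 4 of 18 members above -2 (22.2%). The promoters of 5 members with such a motif wholly before the start are shown as 30 bases each, 5′ to 3′ on the strand of the gene, with the motif in capitals, ordered from the lowest to the highest log2 ratio:

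Clspn, chr4:126556848-126556877, plus strand: gcagccgcaacCCGCCAAAccaacgcaaat

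Bard1, chr1:71103163-71103192, minus strand: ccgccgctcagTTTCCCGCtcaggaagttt

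Brca2, chr5:150522442-150522471, plus strand: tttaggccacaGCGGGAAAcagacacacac

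Xrcc6, chr15:82016312-82016341, plus strand: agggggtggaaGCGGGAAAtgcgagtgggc

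Fancg, chr4:43010335-43010364, minus strand: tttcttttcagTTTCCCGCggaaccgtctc

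The capitals begin 121 bases before the start in Clspn, 209 in Bard1, 168 in Brca2, 46 in Xrcc6 and 52 in Fancg. In Clspn, Brca2 and Xrcc6 the motif stands as its reverse complement. In GENCODE vM21, the sites of Xrcc6 and Fancg lie in exons of other transcripts of these genes. These 5 genes ranged from -4.35 for Clspn to -0.89 for Fancg, so such letters stood before both very low and less low genes. Msh3, at -0.52, also had such a motif wholly before the start, and its bases are not shown. The CHR motif TTTGAA was found in 4 of the 19 members at or below -2 (21.1%), in none of the 18 members above -2, and in 20.2% of all promoters. The CCAAT box, searched as CCAAT on both strands, was in 56.8% of member promoters and 41.1% of all promoters. These matches describe sequence and show no binding.

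Among the Fanconi genes, the pathway was split into low and less low genes. Fancd2 and Fanci, the partners that receive ubiquitin, were lowest. Fancd2 had 1900 counts in control mIOs and 95 in DSS mIOs, 26.5 and 1.74 CPM, for a log2 ratio of -3.93 (interval from -4.25 to -3.64). Fanci had 1065 and 49 counts and a log2 ratio of -4.05 (from -4.50 to -3.64). These partners moved alike: the ratio of Fancd2 to Fanci, taken within each library and thus free of scaling, shifted by 0.12 on the log2 scale, with an interval from -0.40 to 0.66.

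The core complex did not share a single ratio. Fanca, at 1525 and 99 counts, had a log2 ratio of -3.56 (from -3.86 to -3.26), and Fancb, at 610 and 44 counts, had -3.40 (from -3.88 to -2.96). The other core genes stayed between -1.55 and -0.89. Fancc, which helps to hold the complex together, had 800 and 209 counts and a log2 ratio of -1.55, and its partner Fance had 1444 and 457 counts and -1.27. Fancl, the ubiquitin ligase of the complex, had 521 and 190 counts and -1.07, and Fancm, the DNA translocase that anchors it to chromatin, had 838 and 232 counts and -1.46. Fancg, which binds FANCA directly, had 786 and 323 counts and was the highest of the Fanconi members at -0.89 (from -1.09 to -0.71). The ratio of Fancg to Fanca was therefore 6.33 times as high in the DSS library, a shift of 2.66 on the log2 scale with an interval from 2.31 to 3.02. Per kilobase of transcript, Fanca made up 16.2% of the 7 core members in control mIOs and 4.05% in DSS mIOs, and Fance 34.1% and 41.4%. Fanca, Fancc, Fanci and Fancl, as well as Rad54l, share over 10% of their exon bases with a gene on the opposite strand, and whether the counting used strand is not given in the sources used here.

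Outside the members, 12 other Fanconi genes had a median of -0.67, with 11 below 0, 5 at or below -1 and 2 at or below -2. The 2 with the largest absolute ratios were Uhrf1 at -4.18, better known for keeping DNA methylation at replication, and Ube2t at -3.15, the ubiquitin-conjugating enzyme that serves FANCL. Ube2t had 1103 and 95 counts, so the enzyme lay nearer to Fancd2 than to its ligase. One gene of the list was higher in the DSS library, Slx4, a scaffold for nucleases, at 1.49 with 1320 and 2834 counts. It was singled out after its value was seen. For comparison with this and later lists, 8963 of all 17235 genes were below 0. At or below -1 lay 20.2% of them, and at or below -2 lay 6.54%.

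All 20 homologous recombination members were lower in the DSS library, and 14 of them lay at or below -2. The first step, cutting back the broken end, is begun by the MRN complex with CtIP and extended by EXO1 or the BLM helicase. The starting genes were among the least lowered. Rbbp8, which encodes CtIP, had 2400 and 1176 counts and a log2 ratio of -0.64 (from -0.74 to -0.54), Nbn had 1974 and 726 counts and -1.05, and Rad50 had 3875 and 1058 counts and -1.48. The extending genes were far lower: Exo1 had 1235 and 27 counts and a log2 ratio of -5.13 (from -5.73 to -4.58), and Blm had 1519 and 68 counts and -4.09 (from -4.47 to -3.74). Exo1 was at 17.3 CPM in control mIOs and 0.494 CPM in DSS mIOs.

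The BRCA genes act on the resected end. Brca1 had 2588 counts in control mIOs and 250 in DSS mIOs and a log2 ratio of -2.98 (from -3.18 to -2.80), and its ring partner Bard1 had 973 and 104 counts and -2.84 (from -3.14 to -2.54). Their ratio to each other shifted by only 0.15, with an interval from -0.22 to 0.50. Palb2, which links BRCA1 to BRCA2, had 855 and 65 counts and -3.33, while Brca2 itself had 1573 and 241 counts and -2.32, so that Palb2 lost ground to Brca2 by -1.01 (from -1.45 to -0.59). Brip1, the helicase that binds BRCA1, stood apart from this group with 941 and 487 counts and a log2 ratio of -0.56 (from -0.72 to -0.40). The ratio of Brip1 to Brca1 was 5.36 times as high in the DSS library.

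Several paralogous genes assist strand exchange. Rad51b, Rad51c, Rad51d and Xrcc2 encode the subunits of the BCDX2 complex, and their ratios were unequal. Rad51b had 613 and 32 counts and a log2 ratio of -3.87 (from -4.43 to -3.36), Rad51c had 378 and 38 counts and -2.93 (from -3.45 to -2.44), and Xrcc2 had 500 and 45 counts and -3.09 (from -3.56 to -2.64). Rad51d, in contrast, had 2272 and 1065 counts and a log2 ratio of -0.70 (from -0.81 to -0.60). Per kilobase, Rad51d made up 55.6% of the 4 transcripts in control mIOs and 89.1% in DSS mIOs, and its ratio to Rad51b was 8.98 times as high. Xrcc3, which pairs with RAD51C in a second complex, had 869 and 123 counts and -2.43, and its ratio to Rad51c shifted by 0.49 with an interval from -0.07 to 1.09.

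Low ratios were also found for genes that act on recombining and joined molecules. Rad54b, a DNA motor related to Rad54l, had 1315 and 26 counts and a log2 ratio of -5.27 (from -5.89 to -4.71). Rad54l had 1360 and 75 counts and -3.79 (from -4.15 to -3.46), so the pair had similar counts in the control library and unequal counts in the DSS library. Rad54l shares 15.4% of its exon bases with Lrrc41 on the opposite strand, which had 4278 and 3902 counts. The part of Lrrc41 reads in the Rad54l count was not tested. Rad51ap1, which stimulates strand pairing, had 1080 and 37 counts and -4.48 (from -4.99 to -4.01). The nuclease MUS81-EME1 cuts branched DNA, and its genes also differed. Eme1 had 574 and 23 counts and a log2 ratio of -4.25 (from -4.92 to -3.65), whereas Mus81 had 1091 and 345 counts and -1.27 (from -1.45 to -1.10). The ratio of Mus81 to Eme1 was 7.89 times as high in the DSS library. Eme1 shares 221 exon bases with Lrrc59 on the opposite strand, which had 13093 and 11680 counts, and 75 with Mrpl27, which had 1409 and 1270 counts, and the part of their reads in the Eme1 count was not tested. Rad54b shares 35.8% of its exon bases with Fsbp on the same strand, which had 356 and 55 counts and a log2 ratio of -2.31, and reads of the shared bases could count for either gene.

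**Figure D3:**
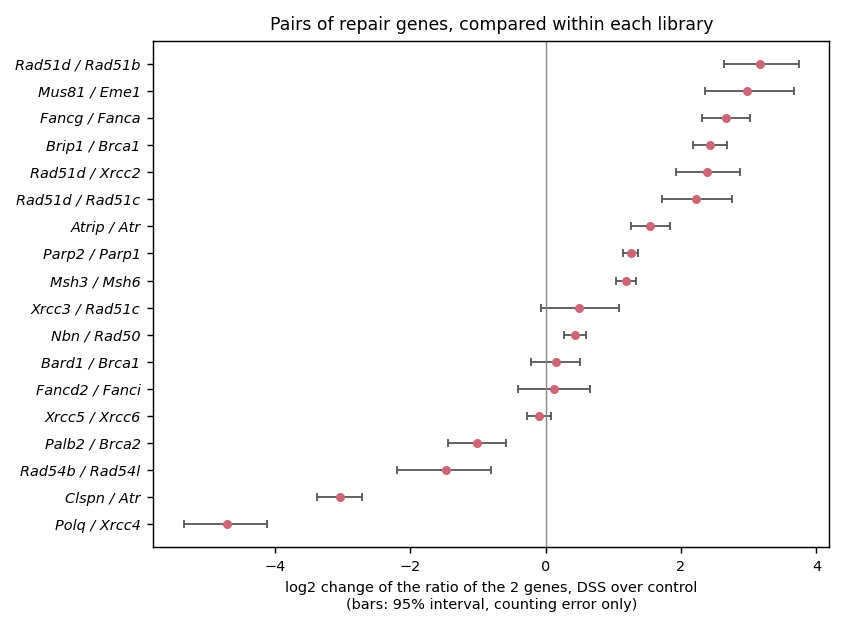
Change, DSS over control, of the ratio of 2 genes taken within each library, on the log2 scale, for 18 pairs of repair genes, with 95% intervals for counting error. The interval holds 0 for Fancd2 and Fanci, Bard1 and Brca1, Xrcc5 and Xrcc6, and Xrcc3 and Rad51c, while the ratio of Polq to Xrcc4 shifted most, by -4.71.

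Of 27 other genes of homologous recombination, 24 were below 0, 10 at or below -1 and 7 at or below -2, with a median of -0.81. Rmi2, a partner of BLM, had the lowest ratio at -4.29 with 231 and 9 counts. The interval of Rmi2, from -5.44 to -3.34, is wide because of its 9 counts. The median of the members of this pathway was -2.95. Both lists were chosen with earlier results of these data known, and their difference was not tested.

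Checkpoint members ranged from -4.35 to 0.24. The kinase genes among them were moderately lower: Atm had 2241 and 1153 counts and a log2 ratio of -0.57 (from -0.67 to -0.47), and Atr had 2737 and 844 counts and -1.31 (from -1.42 to -1.20). The members whose products activate ATR or carry its signal to CHK1 were much lower. Clspn, which encodes claspin, had 2373 and 89 counts, 33.2 and 1.63 CPM, for a log2 ratio of -4.35 (from -4.67 to -4.04), and Topbp1 had 7682 and 923 counts and -2.67 (from -2.77 to -2.57). Clspn is the first of the promoters printed above. Relative to Atr, Clspn was lower by a shift of -3.04 on the log2 scale.

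Atrip, the obligate partner of ATR, was the only member above 0. It had 259 counts in control mIOs and 233 in DSS mIOs, 3.62 and 4.26 CPM, and a log2 ratio of 0.24 whose interval, from -0.03 to 0.50, held 0. Its ratio to Atr was 2.92 times as high in the DSS library, with an interval of the shift from 1.26 to 1.83. Atrip shares 16.0% of its exon bases with Trex1, a nuclease gene on the same strand, which had 65 and 159 counts and a log2 ratio of 1.68 (from 1.25 to 2.12). The part of Trex1 reads in the Atrip count was not tested. Scaled by library totals alone, Atrip stood at -0.02, so its direction depends on the scaling.

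All 14 other checkpoint genes were below 0, 11 at or below -1 and 5 at or below -2, with a median of -1.82. Timeless, at -4.76 with 1741 and 49 counts, and Tipin, at -3.42 with 1943 and 139 counts, had the largest absolute ratios. Their products form a complex that travels with the replication fork and holds claspin there, and both genes lay below -3, as did Clspn. The effector kinases lay lower than Atm and Atr, with Chek1 at -3.37 (1241 and 92 counts) and Chek2 at -2.49 (2964 and 403 counts). Nearest to 0 were Rad17, a clamp loader, at -0.33, Trp53bp1, a mediator at breaks, at -0.60 and Rnf8, a ubiquitin ligase, at -0.67.

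Among the mismatch repair genes, Msh6 was lowest. Msh6 and Msh3 encode subunits that recognize single mismatches and longer loops respectively. Msh6 had 6000 and 1407 counts and a log2 ratio of -1.70 (from -1.79 to -1.62), and Msh3 had 1700 and 906 counts and -0.52 (from -0.64 to -0.40). Pms2, which nicks the strand to be removed, had 974 and 304 counts and -1.29 (from -1.48 to -1.10). Per kilobase, Msh3 stood at 0.305 of Msh6 in control mIOs and at 0.694 in DSS mIOs. The 8 other genes of this list were all below 0, with a median of -1.64, and were led by Lig1 at -3.64 and Pold1 at -3.53, a ligase and a polymerase subunit that also serve DNA replication.

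The base excision genes spread over a wide range. Ung, the glycosylase that removes uracil, had 1267 counts in control mIOs and 67 in DSS mIOs and a log2 ratio of -3.85 (from -4.23 to -3.50). Parp1, which senses strand breaks, had the highest count of the members in both libraries, not corrected for length, with 9058 and 1682 counts, 127 and 30.8 CPM, and a log2 ratio of -2.04 (from -2.12 to -1.97). Its relative Parp2 had 3684 and 1630 counts and -0.79 (from -0.87 to -0.70), and Xrcc1, the scaffold for single-strand break repair, had 2718 and 1095 counts and -0.92 (from -1.03 to -0.82). Per kilobase, Parp2 stood at 0.832 of Parp1 in the control library and at 1.98 of it in the DSS library, so the order of these genes was turned around. Of 19 other base excision genes, 16 were below 0, 8 at or below -1 and 7 at or below -2, with a median of -0.82. Neil3, a glycosylase, was lowest at -4.59 with 2232 and 71 counts, followed by Tdp1, which clears blocked ends, at -2.99.

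End joining held both a very low gene and one near 0. Polq encodes polymerase theta, which joins ends at short shared stretches, and had 992 and 28 counts, 13.9 and 0.512 CPM, for a log2 ratio of -4.76 (from -5.36 to -4.22). Xrcc4, the partner of ligase IV in classical end joining, had 434 and 321 counts, 6.06 and 5.87 CPM, and a log2 ratio of -0.05 whose interval, from -0.26 to 0.16, held 0. The Ku genes were between them and close to each other. Xrcc6 had 3622 and 1194 counts and a log2 ratio of -1.21, Xrcc5 had 1671 and 513 counts and -1.32, and their ratio to each other shifted by -0.10 with an interval from -0.28 to 0.07. With upper quartile factors, or centered on the median of all genes, Xrcc4 turned slightly positive, at 0.04 and 0.01. The 9 other end joining genes had a median of -0.43, 3 at or below -1 and none at or below -2. Nhej1, at -1.28 with 73 and 23 counts, and Aplf, at -1.21, had the largest absolute ratios.

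**Figure D4:**
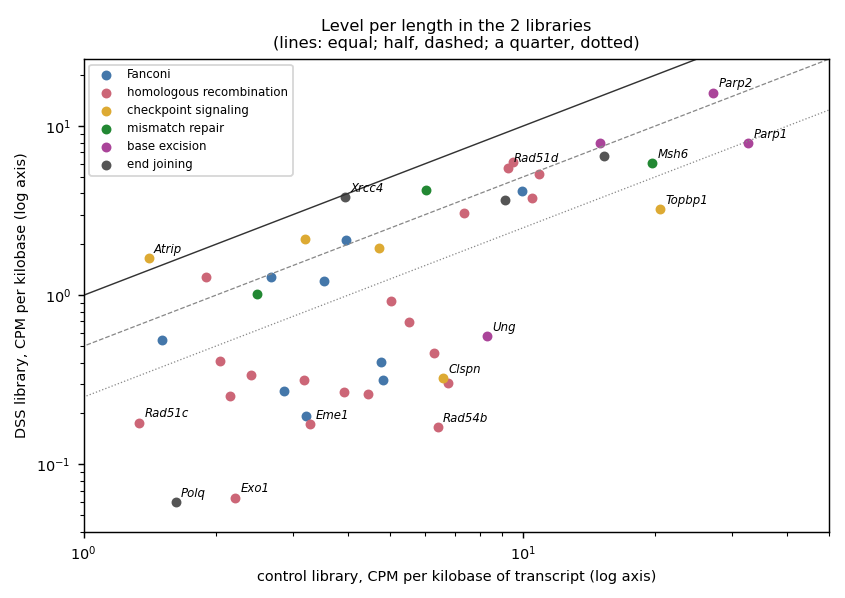
Level of each member per kilobase of its longest protein-coding transcript in the control library and the DSS library, in CPM per kilobase on log axes. Points are colored by pathway, with lines for equal level, 50% (dashed) and 25% (dotted) of the control level. Parp1 and Parp2 are highest in the control library at 32.7 and 27.2, and Polq and Exo1 are lowest in the DSS library at 0.060 and 0.063.

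Per kilobase of transcript, the order of the members was reshaped. In the control library Parp1 led with 32.7 CPM per kilobase, followed by Parp2 at 27.2, Topbp1 at 20.5 and Msh6 at 19.7. In the DSS library Parp2 led with 15.7, followed by Parp1 at 7.94 and Xrcc1 at 7.92, and Topbp1 stood at 3.23. Rad51c, Atrip and Fancm were lowest in the control library, at 1.34, 1.41 and 1.51. At the low end of the DSS library were Polq at 0.060, Exo1 at 0.063 and Rad54b at 0.166. Rad54b had been at 6.40 in the control library, close to Clspn at 6.60.

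Repair routes without members were described for comparison. The 16 genes of nucleotide excision repair, which removes bulky lesions, had a median log2 ratio of -0.28, with 11 below 0. At or below -1 were 3, where 20.2% of all genes lay, and none were at or below -2, where 6.54% lay. Ddb2, a damage sensor, at -1.72, and Gtf2h3, a subunit of the factor that opens the DNA, at -1.05, had the largest absolute ratios. The 16 genes together held 81066 and 59690 counts, and the log2 ratio of the sums was -0.05. These sums rest largely on Ddb1, which alone had 34056 and 31546 counts and a log2 ratio of 0.28. The 9 genes of lesion bypass and direct reversal had a median of -0.87, with 4 at or below -1, and were led by Rad18, a ubiquitin ligase of lesion bypass, at -3.22 and Mgmt, which takes alkyl groups off guanine, at -1.79. No difference between these lists was tested.

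**Figure D5:**
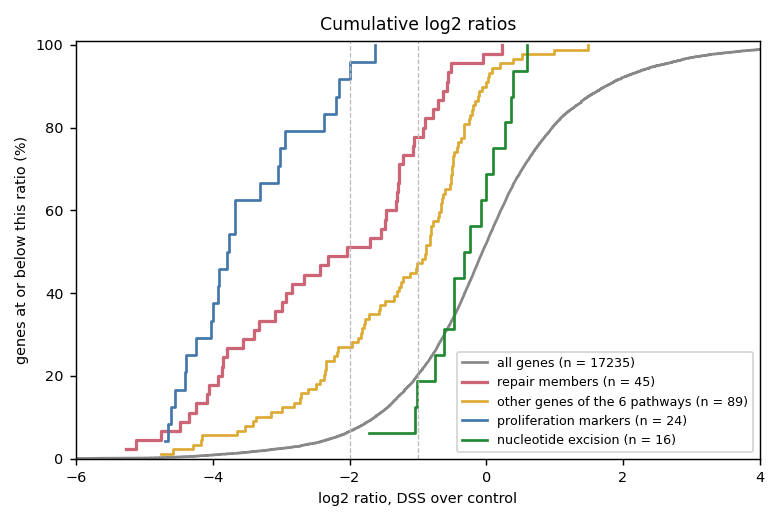
Share of genes at or below each log2 ratio, DSS over control, for all genes, the repair members, other genes of the 6 pathways, proliferation markers and nucleotide excision repair. The median of the members (-2.04) lies between that of the proliferation markers (-3.78) and that of all genes (-0.06).

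Markers of dividing cells lay low together with the repair genes. All 24 listed proliferation markers were below 0, 22 at or below -2, with a median of -3.78, a range from -4.70 to -1.63 and a summed level of 2320 CPM in control mIOs and 189 CPM in DSS mIOs. Mki67, a protein of cycling cells, was at -4.02, and Top2a, a topoisomerase of mitosis, at -3.68. The 8 stem cell markers were all below 0, with a median of -3.68, and summed to 1157 and 210 CPM. Lgr5 was at -3.78 and Ascl2 at -4.31. The part of the share of dividing cells in the ratios of the repair genes was not tested.

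Markers of mature cells went the other way. The 8 enterocyte markers were all above 0, with a median of 3.10 and a summed level of 2356 and 22861 CPM, with Alpi at 3.94 and Vil1 at 1.25. The 6 goblet cell markers were also all above 0, with a median of 4.37 and sums of 706 and 11154 CPM, with Muc2 at 4.98 and Tff3 at 2.55. The 4 Paneth cell markers had a median of -1.05 and sums of 494 and 241 CPM, with Lyz1 at -1.06 and Mmp7 at -1.19. By RT-PCR, the study that reported these data found Lgr5 and Lyz lower in DSS-treated mIOs, but Vil1 and Muc2 at similar levels. The dose and day of that RT-PCR are not given in the sources used here. The labels name the cell type as intestinal stem cells, whereas stem cell, enterocyte, goblet and Paneth markers were all counted in both libraries. The 8 general epithelial markers had a median of 0.00 but ran from -1.35 to 3.99, 4 below 0 and 4 above. Epcam was at 0.03 and Cdh1 at -0.03, whereas the keratin genes Krt20 and Krt8 were at 3.99 and 0.84 and the intestinal factors Cdx2 and Cdx1 at -1.35 and -0.61. Of 10 immune markers, 4, Ptprc among them, were not listed, and the other 6 summed to 14.3 and 24.8 CPM, with Cd79a at 6 and 7 counts and Csf1r at 9 and 21. Most of this sum came from Itgam, at 375 and 631 counts and a log2 ratio of 1.14 (from 0.95 to 1.33), and Cd68, at 491 and 621 counts and 0.73, while Lyz2 was at -0.56 with 137 and 71 counts. Of 11 mesenchymal and endothelial markers, 6 were not listed, and the other 5 summed to 1.61 and 3.11 CPM, with Col1a1 at 29 and 24 counts and Pdgfra at 3 and 7. Pecam1, at 12 and 55 counts, and Acta2, at 4 and 20, were higher in DSS mIOs. The part of these cells in the ratios of the repair genes was not tested.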

How the data were processed

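Poly(A) libraries were made with a stranded mRNA kit, and the submitters' processing notes name HISAT2 and StringTie. The genome build, versions and use of strand are not given in the sources used here. The table that the authors deposited holds unnormalized counts per gene. The single-sample files named as FPKM hold the same 19294 counts per library and were used only for this comparison. Columns of other samples: none.

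Counts were scaled with TMM factors of edgeR 4.0.16 (R 4.3.3), 1.09 for control and 0.915 for DSS. Ratios and exact intervals were computed in Python 3.11.15 with numpy 2.4.6, scipy 1.17.1 and pandas 2.3.3, tested on simulated data, and plotted with matplotlib 3.10.9. The interval of a ratio of 2 genes is the exact conditional interval of the odds ratio. Lengths are the longest protein-coding transcripts of GENCODE vM21 and were found for all 45 members. Lists were compared over genes that reached 10 counts in 1 or both libraries. Named genes are all members, the 2 with the largest absolute ratio (among genes that reached 50 counts in a library) among the other genes of each pathway, and the first 2 markers of each list. The members, the pathway lists and the marker lists were chosen with earlier results of these data known. The 18 gene pairs, Slx4, Chek1, Chek2, Rad17, Trp53bp1, Rnf8, Ddb1, the third and later markers of a list and the overlapping genes were chosen after the values were seen. Some items covered by these rules are not reported here.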

Additional observations from a re-analysis of the deposited data

How the results depend on the processing

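With 1 library per group, no replicate could be left out and no spread between cultures is known, and depth limits the 17 members with fewer than 100 DSS counts. No paired analysis was possible because each group has 1 library. With DESeq2 1.42.0 size factors, a prior count of 2, the deeper library thinned, or another count minimum (none, 50 in one library, 10 in both), each of the 45 ratios stayed within its counting interval. Total counts shifted all ratios by -0.26, which put 25 members outside their intervals, all 45 below 0 and 26.2% of all genes at or below -1. The median was then -2.30 over the members, -1.80 for Fanconi, -1.56 for checkpoint, -1.55 for mismatch repair, -1.74 for base excision and -1.52 for end joining genes, with 38 members at or below -1 and 23 at or below -2. Upper quartile factors gave -1.95 for the members and -1.39 for base excision genes. With the mean in place of the median, the values were -2.33 for the members and -2.35 for Fanconi genes. They were -1.73 for checkpoint, -1.90 for base excision and -1.83 for end joining genes. All of these values therefore depend on the summary. Removing the trend with transcript length (a span of 0.3 in statsmodels 0.14.6) moved the checkpoint median to -1.50 and put Atm, Atr and Brca2 outside their intervals. The number of members at or below -1 lay between 33 and 38, and that at or below -2 at 22 or 23, over all these settings.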
